A study of Homo sapiens with 6 samples.

Results

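The data describe 36 genes of cholesterol synthesis, sterol sensing and sterol uptake in LNCaP, an established cell line grown from a lymph node metastasis of a human prostate cancer, which responds to androgens. The members were listed by name as genes of this pathway. No signal enters this listing by name, but the list was drawn up with earlier results of these data known. Signal does enter the choice of the probe set read for each gene, which was the brightest over all arrays, DHT arrays included. Of the 36, 34 had at least 1 probe set that names them alone, and 33 had one bright enough to be tested, among 14269 genes tested in all. MVD, the decarboxylase of the mevalonate pathway, was too dim to be tested. The expression of FDFT1 and CYP51A1 was not read here, because neither had a probe set that names it alone. One group of 3 cultures was treated for 48 h with 100 nM dihydrotestosterone (DHT), the natural androgen that binds its receptor most tightly, after 3 days in phenol red-free medium whose serum had been stripped of steroids with charcoal and dextran. The other group of 3 cultures were controls in the same stripped medium, and no source used here says whether they received a vehicle. A treatment time is listed for the DHT cultures only, so whether the controls were kept for the further 48 h is not known here. The labels call the arrays biological replicates without saying whether cultures were grown on separate days, so p-values measure the spread between these samples. Each culture gave 1 Affymetrix array, and its signals are MAS5 values on a linear scale, with 1 value for each probe set, a group of short probes against one transcript.

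Cells make cholesterol from acetyl-CoA through mevalonate, a chain of isoprenoid intermediates, squalene and lanosterol. When sterols in the endoplasmic reticulum run low, the escort protein SCAP carries the transcription factors SREBP-1 and SREBP-2 to the Golgi, where proteases release their active fragments, and INSIG proteins hold SCAP back when sterols are plentiful. The active factors bind sterol regulatory elements, often beside sites of NF-Y, in the promoters of synthesis and uptake genes. Cholesterol is also the precursor of androgens, and androgens are known to raise lipid synthesis genes in LNCaP cells.

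In the DHT cultures, 10 of the 33 tested members rose at an adjusted p of 0.05 in limma and none fell. This is 30.3% of the tested members, beside 6.95% of all tested genes called higher and 5.91% called lower. The median standard error (SE) of the log2 fold change was 0.11 for members and 0.14 for all tested genes. Its part in these shares was not tested. At an unadjusted p under 0.05, limma gave 16 members as higher and 1 as lower, beside 13.8% of all tested genes higher and 12.1% lower. The members that rose were ACAT2, HMGCS1, FDPS, SQLE, LSS, EBP, SC5D, INSIG1, LPIN1 and NPC1. Their log2 fold changes, DHT minus control on log2(signal + 16), ran from 0.38 for LSS to 0.63 for INSIG1. The median over all 33 was 0.21, against 0.02 over all tested genes, and 27 had a positive sign. The 3 DHT arrays lay above the 3 control arrays for 14 members, against 16.9% of all tested genes, and below them for 1 member, INSIG2, against 14.0%. With equal array medians INSIG1, SC5D and NPC1 alone still passed, and without the intensity trend in limma HMGCS1, SC5D and NPC1 did.

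**Figure D1:**
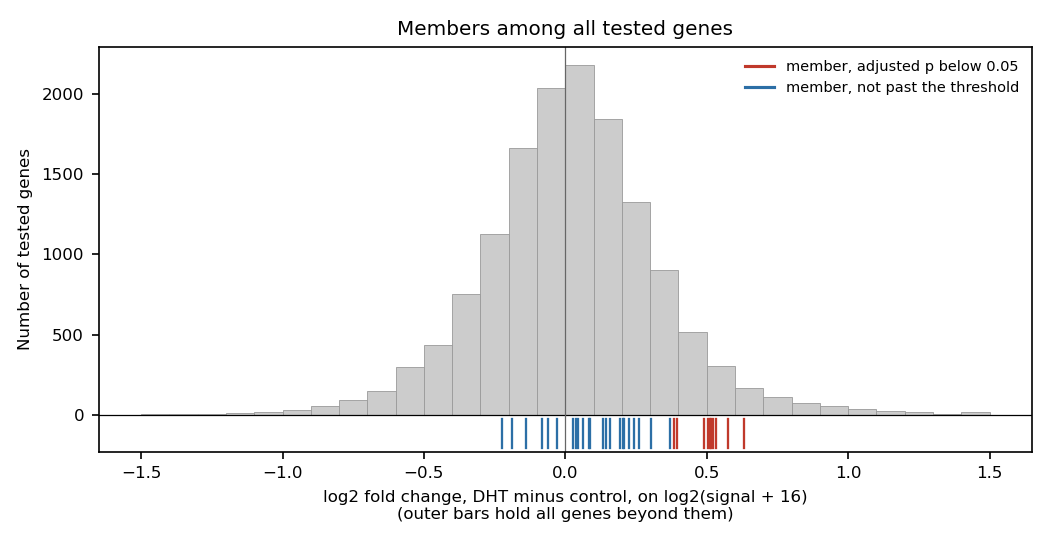
The histogram counts all 14269 tested genes by log2 fold change, DHT minus control, in steps along the x axis, and each tick under it is 1 of the 33 members, red where the adjusted p was below 0.05. The 10 red ticks lie between 0.38 and 0.63, and the lowest tick is INSIG2 at -0.22.

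Every fold change is one relative to the array as a whole, because each array had been scaled to the same trimmed mean signal of 100.03. Some array measures moved with the treatment, and their part in the results was not tested. The 3'/5' signal ratio of ACTB, a sign of RNA integrity and labelling, was 1.77 ± 0.07 with DHT and 1.37 ± 0.05 in controls, and that of GAPDH was 1.06 ± 0.05 with DHT and 0.904 ± 0.044 in controls (SD, n = 3 each). In each case a two-sided exact permutation test gave p = 0.1, the smallest it can give with 3 arrays against 3. The 18 probe sets of the hybridisation spikes, RNAs added before hybridisation, had a mean log2(signal + 16) of 10.19 ± 0.13 with DHT and 9.66 ± 0.11 in controls (SD, n = 3 each), a difference of 0.53 (exact permutation p = 0.1). Of the 33 members, INSIG1, NPC1 and LPIN1 had a log2 fold change above that difference, LPIN1 only just, at 0.534 against 0.528. The share of all tested genes above it was not counted, and the difference is not a limit of noise for a single gene. The 6 markers read for luminal prostate epithelium summed to a signal of 16102 to 16834 with DHT and 7264 to 7829 in controls. Nearly all of that difference lay in KLK3, with a mean of 8985 with DHT and 2186 in controls, and TMPRSS2, with 2251 and 254, both known androgen targets. KRT8, with 437 with DHT and 595 in controls, and HOXB13, with 1203 and 1556, were lower in every DHT array than in any control. KRT18, with 2793 with DHT and 2381 in controls, was higher in every DHT array than in any control. FOLH1 had 744 with DHT and 589 in controls, and its groups overlapped. Markers of other cells were low: KRT5 and KRT14 of basal epithelium summed to 21.7 to 30.7 with DHT and 6.23 to 21.7 in controls. The 3 stromal markers, COL1A2, COL3A1 and DCN, summed to 42.0 to 86.3 with DHT and 47.0 to 87.9 in controls. The leukocyte markers PTPRC, CD3E and CD14 summed to 13.6 to 37.5 with DHT and 32.2 to 60.9 in controls. No listed marker was at 0, and the lowest was CD14, with a mean of 1.68 with DHT and 1.75 in controls.

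Because SREBP binding sites sit close to the start of such genes, the 250 bases before the start were read for the 32 members with an entry in the RefSeq promoter table (GRCh38.p14), which gives 43 promoters. The 5 stretches shown, each 200 bases long up to the base before the start, were picked to let a reader see the motifs. They come from 4 members that rose, FDPS, HMGCS1, EBP and INSIG1, and from SREBF2, the gene of SREBP-2 itself. Capitals mark CCAAT, the NF-Y box, on either strand, where the other strand reads ATTGG, and in SREBF2 also TCACNCCAC, a form of the sterol regulatory element.
FDPS, chr1:155308666-155308865, plus strand: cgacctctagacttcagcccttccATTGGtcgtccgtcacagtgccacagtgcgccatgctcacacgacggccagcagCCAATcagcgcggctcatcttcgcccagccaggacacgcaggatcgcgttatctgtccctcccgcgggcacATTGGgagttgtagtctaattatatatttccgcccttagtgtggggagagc
HMGCS1, chr5:43313413-43313612, minus strand: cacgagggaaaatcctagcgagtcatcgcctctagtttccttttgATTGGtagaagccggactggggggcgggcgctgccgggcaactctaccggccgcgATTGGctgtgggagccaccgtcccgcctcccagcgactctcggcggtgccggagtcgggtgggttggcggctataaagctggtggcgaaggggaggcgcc
EBP, chrX:48521608-48521807, plus strand: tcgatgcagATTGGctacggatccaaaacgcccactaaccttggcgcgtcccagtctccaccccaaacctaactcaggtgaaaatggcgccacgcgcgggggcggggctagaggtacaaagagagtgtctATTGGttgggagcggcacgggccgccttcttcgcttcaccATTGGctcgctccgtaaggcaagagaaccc
INSIG1, chr7:155297678-155297877, plus strand: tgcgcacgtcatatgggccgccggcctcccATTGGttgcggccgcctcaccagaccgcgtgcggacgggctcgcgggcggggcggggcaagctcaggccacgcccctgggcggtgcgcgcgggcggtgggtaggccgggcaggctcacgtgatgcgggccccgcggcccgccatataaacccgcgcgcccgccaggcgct
SREBF2, chr22:41832905-41833104, plus strand: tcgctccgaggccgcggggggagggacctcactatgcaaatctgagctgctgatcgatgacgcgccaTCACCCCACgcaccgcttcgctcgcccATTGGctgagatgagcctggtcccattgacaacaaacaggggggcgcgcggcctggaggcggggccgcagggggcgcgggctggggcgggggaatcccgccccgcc

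The NF-Y box CCAAT, searched on both strands, was present in 22 of the 43 member promoters, or 51.2%, against 32.0% of all 35116 promoters of the same length. Several starts of one gene count as separate promoters, and these can overlap, as in SC5D, where the same box is counted in each. The letters TCACNCCAC were found on either strand in 1 member promoter, that of SREBF2, against 0.883% of all promoters. The androgen response half-site AGAACA was found in 1 member promoter, that of PMVK, against 12.4% of all promoters. The motifs were searched separately, and matches of CCAAT on opposite strands can overlap, as in IDI1. Of the 10 members that rose, 8 had an entry, and 6 of these held the NF-Y box, beside 20 of all 32 members with an entry. The share by gene over all promoters was not counted. These matches describe letters in a short window and say nothing of binding.

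The first steps, from acetyl-CoA to the isoprenoid building blocks, split into genes that rose and genes that did not pass. Of 5 tested, ACAT2 and HMGCS1 rose, and the median over the 5 was 0.09 on the log2 scale. ACAT2, the cytosolic thiolase that joins acetyl-CoA units, had signals of 298, 320 and 241 in the DHT cultures and 220, 176 and 186 in the controls. The lowest DHT array stood above the highest control array, and ACAT2 rose by 0.52 ± 0.12 on the log2 scale (SE; limma adjusted p = 0.0164). The call was lost, at an adjusted p of 0.0581 to 0.0694, when control replicate 2 or 3 or DHT replicate 1 or 2 was left out. HMGCS1, the synthase that makes HMG-CoA, had signals of 193, 169 and 183 with DHT and 131, 111 and 126 in controls in probe set 221750_at. These groups do not overlap either, and the log2 fold change was 0.51 ± 0.11 (limma adjusted p = 0.0107).

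A second HMGCS1 probe set went the other way. In 205822_s_at the signals were 117, 93.6 and 92.5 with DHT and 163, 178 and 156 in controls, so that the log2 fold change was -0.64 ± 0.12 (adjusted p = 0.00666 over probe sets in limma). The direction of HMGCS1 therefore depends on which probe set is read, and the mean of both was -0.06. MVK, the kinase that phosphorylates mevalonate, and PMVK, which adds a second phosphate, did not pass, at 0.09 (95% interval -0.11 to 0.29) and 0.04 (-0.15 to 0.23). IDI1, the isomerase of the isoprenoid units, had -0.03 ± 0.14 in 233014_at, the dimmest of its 4 tested probe sets, with 96.3, 75.4 and 73.6 with DHT and 82.6, 76.0 and 91.6 in controls. The others end in _x_at, a mark of probes that may hybridise to other transcripts. One of them, 208881_x_at, had signals of 676, 485 and 492 with DHT and 356, 400 and 344 in controls, and a difference of 0.55 on the log2 scale (0.0144 as its adjusted p over probe sets in limma). Of the other pair, 204615_x_at had 0.48 (limma adjusted p = 0.0639 over probe sets) and 242065_x_at had 0.09 (0.756). The MVD probe set averaged 10.3 ± 7.65 with DHT and 17.7 ± 12.7 in controls (SD, n = 3 each), a spread nearly as large as the signal.

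At the branch point of the pathway, FDPS and GGPS1 make the farnesyl and geranylgeranyl chains that also go to protein prenylation. FDPS had signals of 521, 478 and 422 with DHT and 407, 370 and 298 in controls. The groups met closely, at 422 against 407, and FDPS rose by 0.39 ± 0.12 on the log2 scale (limma adjusted p = 0.0479), the weakest call of the 10. The call was lost when DHT replicate 1 or 2 was left out (adjusted p of 0.158 and 0.120), and when control replicate 2 or 3 was (0.0833 and 0.163). GGPS1 had 455, 473 and 472 with DHT and 506, 495 and 463 in controls, and its 2 probe sets had log2 fold changes of -0.06 and -0.14 that did not pass.

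**Figure D2:**
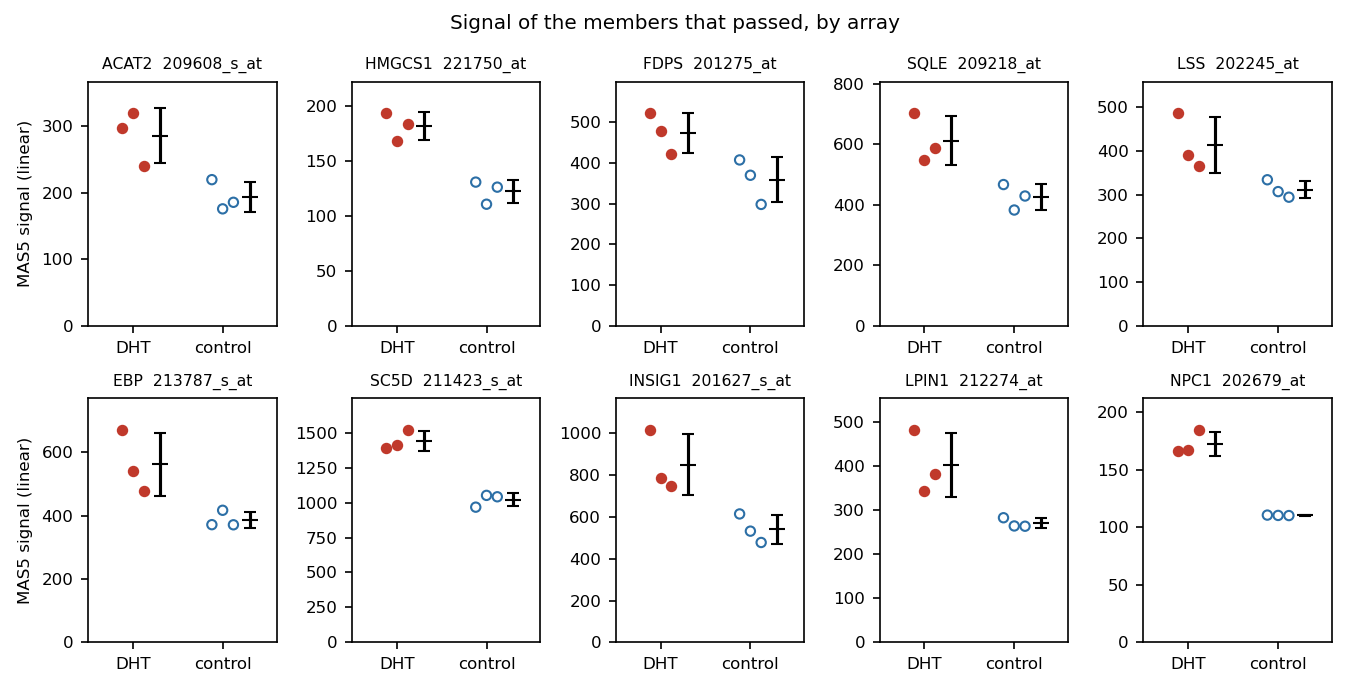
Each panel shows the MAS5 signal, on a linear axis from 0, of 1 member that rose, with the 3 DHT arrays in red on the left, the 3 control arrays in open blue on the right, and the mean with its SD in black. In all 10 panels the lowest DHT array lies above the highest control array, most narrowly for FDPS, at 422 against 407.

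From squalene onward, 4 of 9 tested enzymes rose and 8 of 9 had a positive sign, with a median log2 fold change of 0.23. SQLE, squalene epoxidase, had signals of 702, 549 and 587 with DHT and 467, 383 and 429 in controls. It rose by 0.50 ± 0.11 (limma adjusted p = 0.00944), and neither of its other tested probe sets passed, at 0.43 and 0.17. LSS, which folds epoxidised squalene into lanosterol, the first sterol, had 486, 390 and 366 with DHT and 334, 307 and 294 in controls. DHT replicate 1 stood well above the other DHT arrays, and LSS rose by 0.38 ± 0.11 (limma adjusted p = 0.0394). It passed with all 6 arrays and without DHT replicate 3, but not without any other single array (adjusted p = 0.0504 to 0.127), and its second probe set had -0.02.

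EBP and SC5D act late in the pathway, on the double bonds of the sterol rings. EBP, the sterol isomerase, had signals of 670, 540 and 476 with DHT and 371, 417 and 371 in controls. It rose by 0.51 ± 0.11 (limma adjusted p = 0.0135), with 0.67 in 213789_at (adjusted p = 0.0108 over probe sets), 0.39 in 202735_at and -0.46 in 231320_at, a dim probe set with a mean of 13.7 with DHT and 23.5 in controls. Without control replicate 3, EBP did not pass (adjusted p = 0.0515). SC5D, the sterol desaturase, had 1389, 1415 and 1520 with DHT and 967, 1051 and 1041 in controls. The arrays of each group lay close together, and SC5D had the smallest adjusted p of the members, with a difference of 0.49 ± 0.07 on the log2 scale (limma adjusted p = 0.00128). Its second probe set, far dimmer, had 0.14.

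The other sterol enzymes did not pass. MSMO1, which takes methyl groups off the sterol, had signals of 812, 754 and 675 with DHT and 686, 646 and 603 in controls, groups that overlap, and a log2 fold change of 0.21 (95% interval 0.01 to 0.40, limma adjusted p = 0.161). NSDHL and HSD17B7, which work with MSMO1 in the same demethylation, had 0.23 and -0.08, and the only probe set of HSD17B7 ends in _x_at. TM7SF2, a sterol reductase, had 0.03. DHCR7, the last enzyme of one branch, had 552, 465 and 382 with DHT and 477, 431 and 400 in controls, a log2 fold change of 0.08. In its other probe set, 201791_s_at, the signals were 471, 406 and 333 with DHT and 333, 283 and 247 in controls, a difference of 0.46 on the log2 scale (0.0477 as its adjusted p over probe sets in limma).

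**Figure D3:**
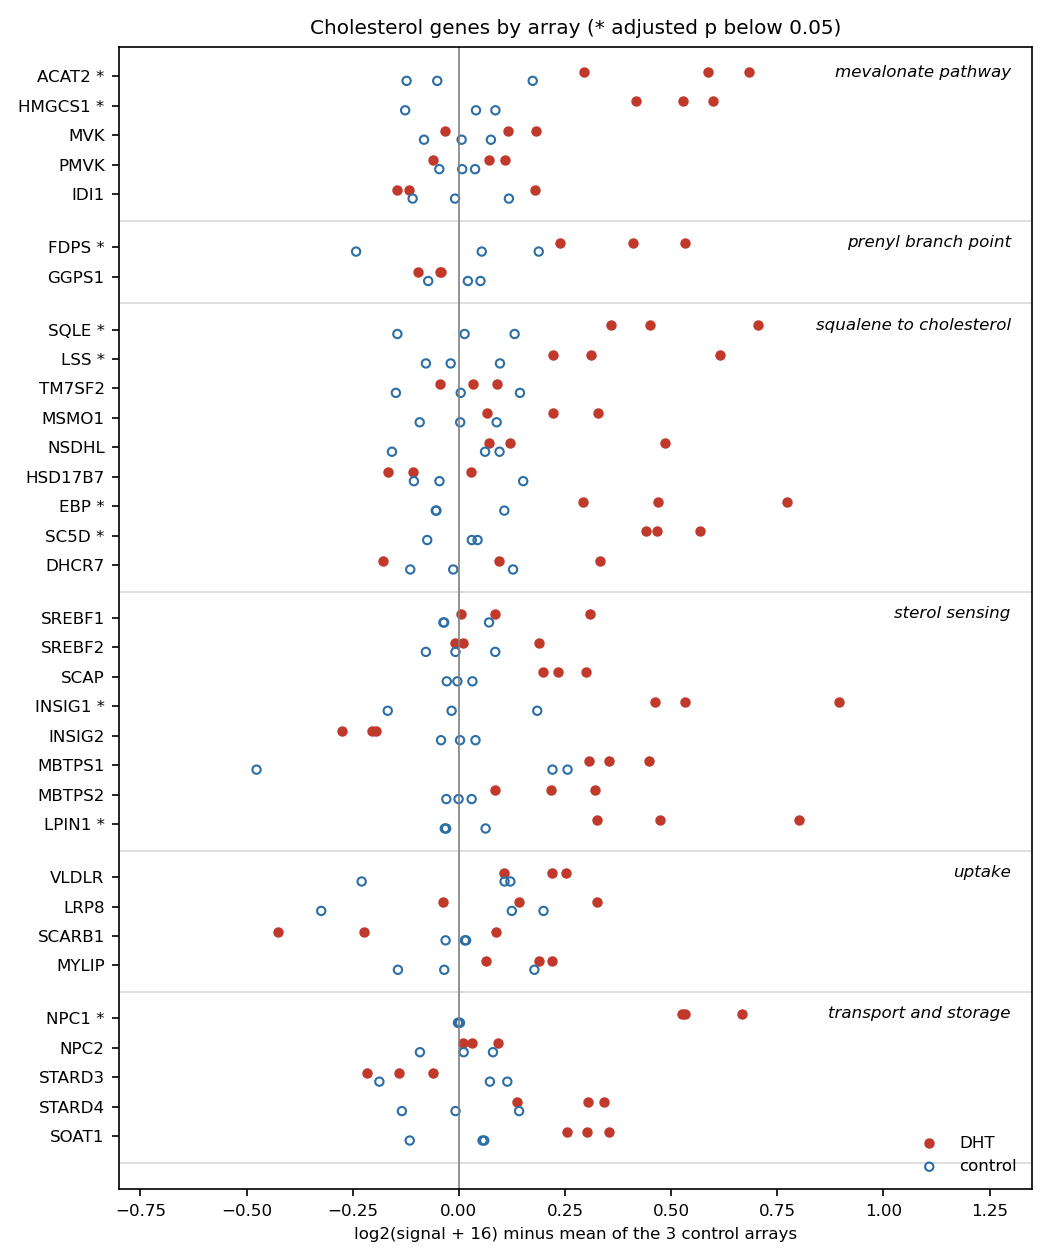
Each row is 1 of the 33 tested members, grouped by role, and shows the log2(signal + 16) of each array minus the mean of the 3 control arrays, with DHT in filled red and control in open blue. Members with an asterisk had an adjusted p below 0.05; NPC1, SC5D and SCAP have tight groups that do not overlap, and INSIG2 alone has all 3 DHT arrays below the controls.

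Among the genes that sense sterols and control SREBP, INSIG1 and LPIN1 rose and the other 6 tested did not pass. INSIG1, which retains SCAP in the endoplasmic reticulum and is itself a target of SREBP, had signals of 1016, 786 and 747 with DHT and 614, 532 and 478 in controls. It had the largest log2 fold change of the members, 0.63 ± 0.12 (limma adjusted p = 0.00605). The probe set 201626_at showed a larger one, with 886, 765 and 751 with DHT and 465, 409 and 365 in controls, a difference of 0.93 on the log2 scale (0.000218 as its adjusted p over probe sets in limma). A further INSIG1 probe set, 201625_s_at, had 0.05. INSIG2, its paralogue with the same retention function, had 201, 203 and 191 with DHT and 235, 227 and 241 in controls. These groups do not overlap, but INSIG2 did not pass, at -0.22 (95% interval -0.42 to -0.03, limma adjusted p = 0.132). The difference between the fold changes of the 2 paralogues was not tested.

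LPIN1, a phosphatidate phosphatase that also limits nuclear SREBP and is known as an SREBP target, had signals of 482, 343 and 382 with DHT and 283, 264 and 264 in controls. It rose by 0.53 ± 0.12 in 212274_at (limma adjusted p = 0.0112), while its other probe sets had 0.21 and, in 212276_at, 0.08. In controls 212276_at was the brighter, with a mean of 279 against 270 for 212274_at. With DHT the means were 298 and 402, so the DHT arrays decided which was read, and the LPIN1 call depends on that choice. SCAP, the sterol-sensing escort, had 482, 506 and 470 with DHT and 399, 417 and 407 in controls. The groups were tight and did not overlap, yet SCAP fell short of the threshold, at 0.24 ± 0.08 (95% interval 0.08 to 0.41, limma adjusted p = 0.0571). It passed when the dimmest 60% of probe sets were dropped (adjusted p = 0.0428) and where probe sets of a gene were averaged (adjusted p = 0.0423).

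The genes of the SREBP factors themselves had small differences. SREBF1, which encodes SREBP-1, had 1002, 856 and 808 with DHT and 847, 785 and 786 in controls, a log2 fold change of 0.13 (95% interval -0.06 to 0.33). SREBF2 had 460, 399 and 404 with DHT and 380, 427 and 399 in controls, a log2 fold change of 0.06 (-0.13 to 0.25). In both genes DHT replicate 1 was the highest array and the other DHT arrays lay among or near the controls. MBTPS1 and MBTPS2, the Golgi proteases that cleave SREBP in sequence, had 0.37 and 0.21 and did not pass (limma adjusted p = 0.188 and 0.125). MBTPS1 had 262, 271 and 291 with DHT and 146, 253 and 246 in controls, so that control replicate 1 alone stood far below the rest, and without it the log2 fold change was 0.13 (limma adjusted p = 0.482). Its second probe set had -0.12.

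None of the 4 tested uptake genes passed, and for all 4 the DHT and control arrays overlapped. VLDLR and LRP8, receptors of the LDL receptor family, had log2 fold changes of 0.19 (95% interval -0.09 to 0.48) and 0.14 (-0.21 to 0.50). SCARB1, the receptor that takes up cholesterol esters from HDL, had 379, 302 and 260 with DHT and 359, 348 and 360 in controls, a log2 fold change of -0.19 (-0.45 to 0.07). The DHT arrays of SCARB1 spread far more widely than its controls. MYLIP, a ubiquitin ligase that sends receptors of this family to degradation, had 0.16, and 1 of its other tested probe sets, 220319_s_at, had 0.43 (limma adjusted p = 0.0313 over probe sets).

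In sterol transport and storage, NPC1 rose and the other 4 tested did not pass. NPC1, which moves cholesterol out of late endosomes and lysosomes, had signals of 166, 167 and 184 with DHT and 110.5, 110.2 and 110.0 in controls. The controls were nearly identical, and NPC1 rose by 0.57 ± 0.10 (limma adjusted p = 0.00457). Its other 3 probe sets lay below the limit on dim probe sets. NPC2, the soluble partner that hands cholesterol to NPC1 in the lysosome, had 608, 635 and 599 with DHT and 630, 557 and 600 in controls, a log2 fold change of 0.04 (95% interval -0.12 to 0.21).

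SOAT1, which esterifies cholesterol for storage, had 178, 165 and 171 with DHT and 142, 124 and 142 in controls, groups that do not overlap. It did not pass in this probe set, at 0.30 ± 0.10 (limma adjusted p = 0.0838), but its next probe set, 228479_at, did, with 135, 136 and 154 with DHT, 100, 93.3 and 103 in controls and a difference of 0.45 on the log2 scale (0.0269 as its adjusted p over probe sets). STARD4, a cytosolic sterol carrier, had 194, 189 and 166 with DHT and 149, 167 and 135 in controls, a log2 fold change of 0.26 (95% interval 0.02 to 0.51, limma adjusted p = 0.164). STARD3, a late endosomal sterol transporter, had -0.14.

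**Figure D4:**
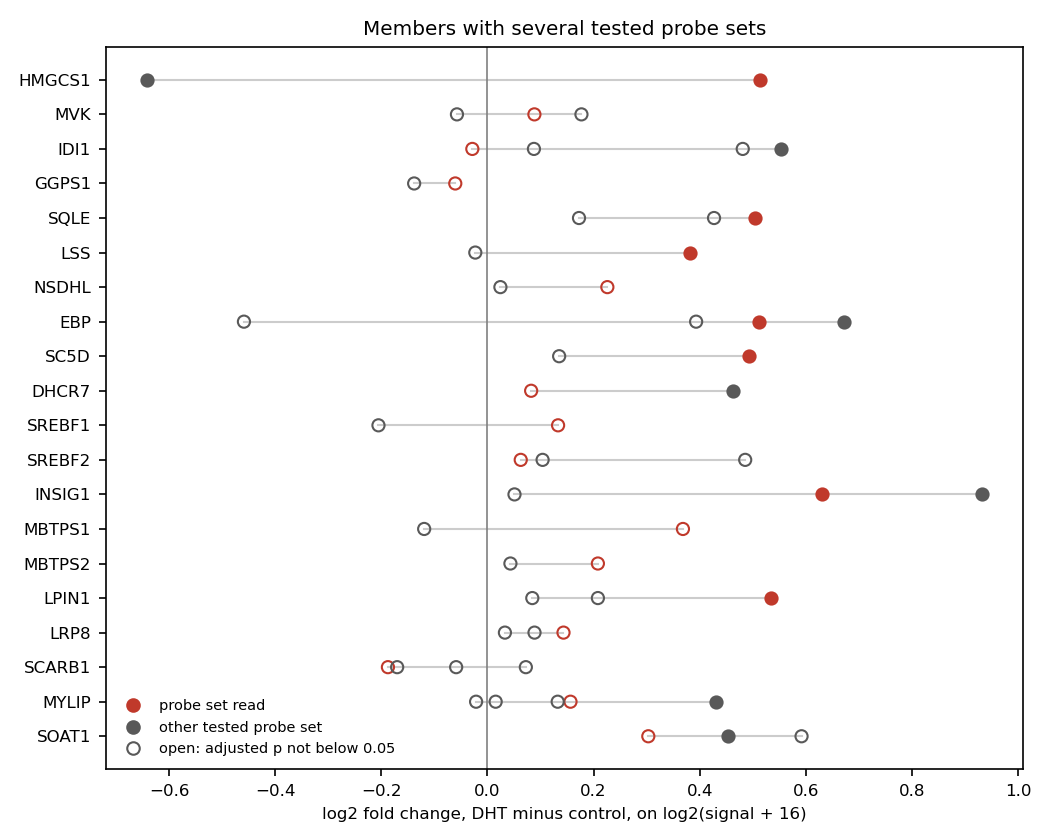
Each row is 1 of the 20 members with 2 or more tested probe sets, and each circle is the log2 fold change, DHT minus control, of 1 probe set, red for the one read, filled where the adjusted p over probe sets was below 0.05. HMGCS1 has filled circles on both sides of 0, at 0.51 and -0.64, and INSIG1 spans 0.05 to 0.93.

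Of the 20 members with 2 or more tested probe sets, 11 had a single sign in all of them and 9 had both signs. The 9 were HMGCS1, MVK, IDI1, LSS, EBP, SREBF1, MBTPS1, SCARB1 and MYLIP. In HMGCS1 alone, probe sets of opposite sign both passed. In the other 8, at least 1 sign came only from probe sets that did not pass. The remaining 13 members, among them FDPS, SCAP, NPC1 and ACAT2, rest on 1 tested probe set. With the tested probe sets of a gene averaged, SQLE (0.37), EBP (0.28), LPIN1 (0.28), LSS (0.18), HMGCS1 and, at an unchanged 0.39, FDPS did not pass. SC5D passed with a log2 fold change of 0.31, and SOAT1 and SCAP passed as well. Every member probe set read here lay above the limit of 17.3 on all 6 arrays, the lowest being IDI1 at 73.6, so no member passed that limit through one group alone. The choice among the probe sets of a gene did use the DHT arrays, and they decided it for HMGCS1 and LPIN1. In controls alone, 205822_s_at of HMGCS1 and 212276_at of LPIN1 were brighter than the probe sets read.

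The array with the highest signal in the DHT group was replicate 1 for 18 of the 33 members and for 7 of the 10 that rose, against 33.7% of all tested genes. Among the controls, replicate 1 was the highest for 19 of 33 and for 8 of the 10 that rose, against 33.7% of all tested genes. By array, the median over members of log2(signal + 16), minus the control mean of each gene, was 0.31, 0.12 and 0.20 in the DHT arrays and 0.05, -0.000656 and -0.03 in the controls. All 3 DHT medians lay above all 3 control medians. Without DHT replicate 1, 7 members passed as higher, and without control replicate 3, 6 did. Over all tested genes, 663 and 647 were called higher in these fits, against 991 with all 6 arrays.

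Another 40 genes of sterol and isoprenoid metabolism, listed by role, were read in the same fit. Of 33 tested, 5 rose and 1 fell, or 15.2% and 3.03%, beside 6.95% and 5.91% of all tested genes, with a median log2 fold change of 0.14. TMEM97, an endoplasmic reticulum protein that binds NPC1 and sterols and is known as an SREBP target, had signals of 1238, 1133 and 993 with DHT and 760, 641 and 632 in controls, and rose by 0.71 ± 0.10 (limma adjusted p = 0.000869). LBR, a nuclear envelope protein with sterol reductase activity like that of TM7SF2, had 554, 490 and 546 with DHT and 378, 362 and 410 in controls, and rose by 0.45 ± 0.08 (limma adjusted p = 0.00538). ERLIN2, which takes part in the degradation of sterol-regulated proteins of the endoplasmic reticulum, rose by 0.31 ± 0.08 (limma adjusted p = 0.0310), a call lost when any array but DHT replicate 2 was left out (0.0688 to 0.117).

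In the isoprenoid branch, 2 of 12 tested genes rose and none fell. PGGT1B, a subunit of the enzyme that adds geranylgeranyl groups to proteins, rose by 0.30 ± 0.09 (limma adjusted p = 0.0388), and ICMT, which methylates prenylated proteins, by 0.43 ± 0.12 (limma adjusted p = 0.0408). The PGGT1B call was lost when any array was left out (0.0756 to 0.108), and with the replicate number as a block (0.0643). That of ICMT was lost when any array but control replicate 3 was (0.0581 to 0.123). Of 14 tested genes of oxysterols, efflux and storage, TMEM97 rose and ABCG1 fell. ABCG1, which exports cholesterol to HDL and is known as a target of the oxysterol receptors, had 78.6, 121 and 107 with DHT and 139, 145 and 159 in controls. The groups do not overlap, and ABCG1 had -0.48 ± 0.14 (limma adjusted p = 0.0490), a call lost when any array but DHT replicate 2 was left out (0.0803 to 0.158) and with equal array medians (0.0519). With the tested probe sets of a gene averaged, ERLIN2 (0.18), ICMT (0.16), PGGT1B (0.03) and ABCG1 (-0.305) did not pass. That setting still called 4 of the other pathway genes higher and 1 lower, so genes not named here gained a call.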

How the data were processed

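Biotin-labelled RNA of the 6 cultures was hybridised to 1-colour arrays (source: the labels' protocols). The deposited values are linear signal intensities that the authors obtained with MAS5, according to the submitters' processing notes, with no version given in the sources used here. The number of arrays limits the precision. Of 54675 probe sets, 62 are array controls; 41097 name 1 gene in the platform annotation, 1801 several and 11777 are unnamed here. Gene IDs matched 41043 of the single-gene probe sets to current symbols (GRCh38.p14). The lowest 40% by mean log2(signal + 16) were removed, at a signal of 17.3, leaving 32768. A gene was read from its brightest single-gene probe set over the 6 arrays, _x_at only where no other passed. Tests used limma 3.58.1 in R 4.3.3 (lmFit, eBayes with intensity trend, 4 residual degrees of freedom) on log2(signal + 16), which understates fold changes of dim genes, with Benjamini-Hochberg adjustment over all 14269 genes, or over probe sets where stated. Python 3.11.15 served for permutation tests, promoters and plots. Over all tested probe sets, the deviations of same-numbered arrays had r of -0.03 to -0.000918. These r values do not settle whether the numbers pair the samples. Among the members, replicate 1 was most often the highest array in both groups. The named genes are all 36 members and, of the 40 other pathway genes, those past the threshold. Members and lists were chosen with earlier results of these data known. Alternatives were other pseudocounts, dim filters, normalisations, variance models and gene values, adjustment over probe sets, the replicate block, and leaving out each array with the probe sets read kept.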

Additional observations from a re-analysis of the deposited data

How the results depend on the processing

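Over 17 alternatives, SC5D and NPC1 passed every time and the other 8 members that rose did not. Of 561 values of members under alternatives, 506 kept direction and call, 37 lost the call without changing sign, 3 gained one and 15 changed sign, of which HMGCS1 with probe sets averaged also lost its call; the causes were not tested. No member was called lower under any alternative. With equal array medians 3 members, 1 of the other pathway genes and 466 of all genes were called higher, and 40.8% of calls were higher, against 54.0% with the deposited scaling. Without the intensity trend 3 members, 1 other pathway gene, 384 genes higher and 287 lower passed. With probe sets averaged 6 members, 4 other pathway genes and 746 of all genes were called higher. No other pathway gene was lower (0) with a pseudocount of 1, no dim filter, adjustment over probe sets, quantile normalisation, equal medians or no trend. Leaving out 1 array gave 6 to 10 members higher (6 without control replicate 3), 2 to 4 other pathway genes higher and 0 to 1 lower, and 629 to 774 genes higher and 517 to 652 lower. The member median of 0.21 ranged from 0.14 to 0.23. The replicate block gave 10 members higher, 889 genes higher and 809 lower, and changed no member's call, while PGGT1B lost its call. Whether same-numbered arrays belong together is not stated in the labels. Averaged probe sets turned HMGCS1 to -0.0637, IDI1 to 0.273 and SREBF1 to -0.0361. Equal medians turned NPC2 to -0.0182, PMVK to -0.0213 and TM7SF2 to -0.0369. Single left-out arrays turned IDI1 (-0.132 to 0.0306), LRP8 (-0.0188 to 0.243), TM7SF2 (-0.048 to 0.0982), DHCR7 (-0.0426 to 0.213), SREBF2 (-0.000493 to 0.106) and NPC2 (-0.00178 to 0.0842), none of which passed.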
